A study of Mus musculus with 5 samples.

Results

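The JAK kinases and STAT factors described here are 9 mouse genes: the kinase genes Jak1, Jak2 and Jak3 and the transcription factor genes Stat2, Stat3, Stat4, Stat5a, Stat5b and Stat6. They were taken by name, not by any measured value, and each was read from the probe set annotated to that symbol alone. Of the 9, 8 had such a probe set, 1 each, among 19938 genes in all. The probe set that carries Jak3 is also annotated to Insl3, the next protein-coding gene beside it in the RefSeq annotation of GRCm38.p6, so it names neither and Jak3 was left out.

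Janus kinases sit on the inner ends of cytokine receptors. When a cytokine draws the receptor chains together, the kinases phosphorylate each other, the receptor tails and then STAT proteins, which pair, enter the nucleus and bind DNA. In innate lymphocytes this route carries signals of IL-2 and IL-7 (mainly to STAT5), IL-4 and IL-13 (STAT6), IL-12 (STAT4), IL-6, IL-10 and IL-21 (mainly STAT3) and the type I interferons (STAT2). PMA and ionomycin do not act through these receptors: PMA, a phorbol ester, activates protein kinase C, and ionomycin carries calcium into the cell.

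Natural helper cells, which are innate lymphocytes also known as group 2 innate lymphoid cells, came from lungs of C57Bl/6 mice that were naive and 6 to 8 weeks old, and were isolated by flow cytometry. Their gate took cells negative for lineage markers, positive for Sca-1, CD127 and CD25, and with no or low c-Kit. In the first group, 2 samples were held in culture for 3 days with PMA at 60 ng/ml and ionomycin at 500 ng/ml, and in the second, 3 unstimulated samples were taken directly from the sort. Culture and stimulation cannot be told apart, since no sample was cultured without the activators. Whether the samples are of different mice or cultures is not in the labels, so the p-values cover only the spread of these arrays, part or all of which may be technical.

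Each sample was hybridised to 1 array, and values are log2 expression values on which a difference of 1 is a doubling. On the 5 arrays their medians ran from 5.63 to 5.66, and there were no detection calls. Differences are PMA and ionomycin minus unstimulated, with the standard error (SE) and 95% interval of a limma fit over all genes, and a gene was called at a Benjamini-Hochberg adjusted p under 0.05. In that fit 147 genes rose and 192 fell, which became 660 and 526 after each array was centred on its median, 825 and 729 after quantile normalization and 562 and 10338 after centring on reference genes. Of the 10 measured reference genes, 9 were themselves higher after PMA and ionomycin. Of 13 marker genes of natural helper cells 11 were measured, with a mean level of 9.37 to 9.44 on the stimulated arrays and 10.30 to 10.42 on the unstimulated ones, above the upper quartile of each array (7.03 to 7.11). Of the 11, 5 fell and none rose, against 0.963% and 0.737% of all genes. On both stimulated arrays 8 of the 11 were lower than on every unstimulated array. In that way 2 were higher, Il2ra and Il5 (14.0% of all genes lower and 18.6% higher). Of 59 measured markers of 10 other lung and blood cell types, none was called by limma (9 lower and 1 higher at an unadjusted p under 0.05). Of the 59, 23 were lower on both stimulated arrays than on every unstimulated array and 3 were higher in that way (14.0% and 18.6% of all genes), and the mean level of 7 of the 10 lists was lower in that way. The 6 endothelial markers had a mean level of 5.59 to 5.85 on the stimulated arrays and 6.26 to 7.73 on the unstimulated ones, and the 6 neutrophil markers 4.66 to 4.74 and 5.28 to 6.45, with unstimulated array 1 the highest in both. Of the neutrophil markers only S100a8, S100a9 and Retnlg were lower on both stimulated arrays than on every unstimulated one. Ly6g was higher in that way, and the groups of Camp and Ltf overlapped. The part of other cells in the differences below was not tested. In such bulk RNA, fewer cells of a type and less RNA per cell cannot be told apart.

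None of the 8 measured JAK and STAT genes passed the test in either direction, where 1.70% of all genes did (0.737% higher and 0.963% lower). At an unadjusted p under 0.05, Jak1, Jak2 and Stat4 were lower and none was higher, against 8.58% of all genes lower and 11.3% higher. The same 3 genes were lower on both stimulated arrays than on all 3 unstimulated arrays (14.0% of all genes), and Stat3 was higher in that way (18.6% of all genes). The Stat3 difference was -0.21 after centring on reference genes, most of which were themselves higher after PMA and ionomycin. It was 0.12 to 0.52 under the other alternatives in which Stat3 was fitted. The median difference over the 8 genes was -0.12, and that over all genes tested was 0. The widest of the 8 differences was that of Jak1, at 1.42-fold.

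**Figure D1:**
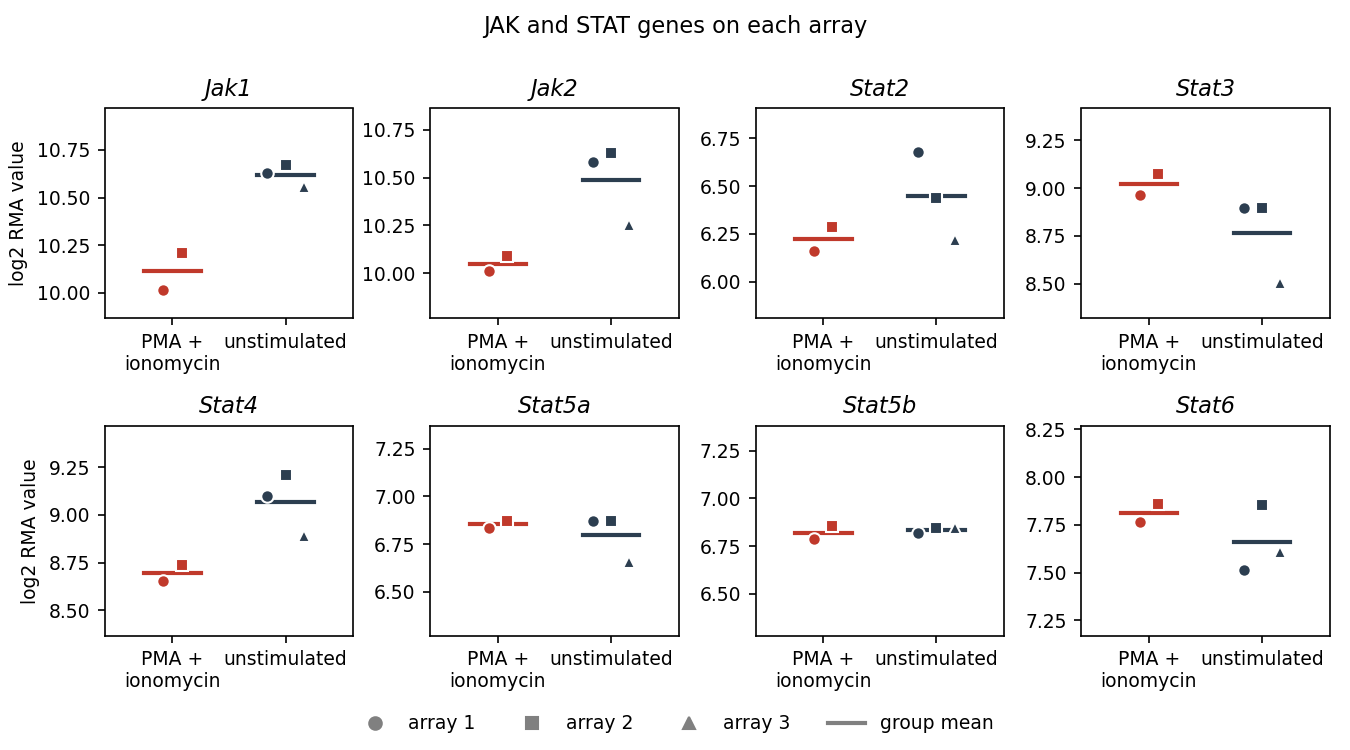
Log2 expression value (vertical axes, each spanning the same range) of the 8 measured genes on the 2 arrays of cells kept with PMA and ionomycin (red, left) and the 3 unstimulated arrays (dark blue, right), with a bar at each group mean. Jak1, Jak2 and Stat4 lie lower on both stimulated arrays, Stat3 lies higher on this scale but differs by -0.21 after centring on reference genes, and the groups of the other 4 genes overlap. Most of the reference genes were themselves higher after PMA and ionomycin, and under the other alternatives that fitted Stat3 its difference was 0.12 to 0.52.

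Jak1, the kinase shared by receptors of the common gamma chain, gp130 and interferon families, read 10.02 and 10.21 on the stimulated arrays, against 10.63, 10.67 and 10.55 on the unstimulated arrays. Both stimulated values lay below every unstimulated one, and the gap between the groups was wider than the spread within either. The means were 10.11 ± 0.14 (SD, n = 2) after PMA and ionomycin and 10.62 ± 0.06 (SD, n = 3) in unstimulated cells, a difference of -0.51 ± 0.08 SE (95% interval -0.73 to -0.28) or 1.42-fold lower. This did not pass the test (unadjusted p = 0.0039, limma adjusted p = 0.0794). Jak1 was called under more alternatives than any other of the 8 genes. It passed, as lower, when dim genes under the median of all probe sets were left out (adjusted p = 0.0342), after quantile normalization (0.0437) or cyclic loess (0.0411) and when genes with repeated values were left out (0.0246). It also passed after centring on reference genes (3.977e-05), but that fit called 10900 genes. Among them was Il7 (0.0482), whose difference before centring was 0, so the Jak1 value there is not comparable with the others. Jak1 was thus called in 5 fits at that threshold. It did not pass in any fit that left out an array (adjusted p = 0.0809 without stimulated array 2 to 0.234 without unstimulated array 2), nor against unstimulated array 3 alone (0.450).

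**Figure D2:**
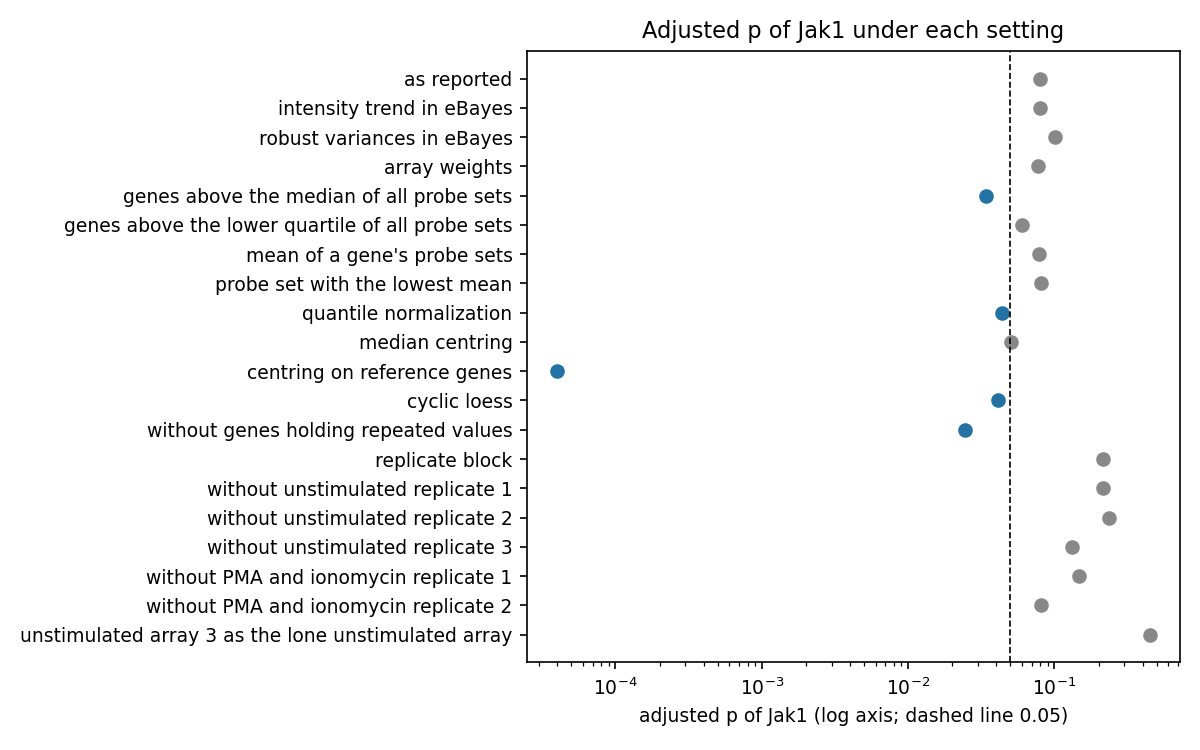
Benjamini-Hochberg adjusted p of Jak1 (horizontal, log axis) as reported and under the alternative fits (vertical), with points under the dashed line at 0.05 in blue. The reported value is 0.0794, and 5 alternatives put Jak1 under 0.05, each of them with lower values after PMA and ionomycin. The smallest value is from centring on reference genes, a fit that also called Il7, whose difference before centring was 0.

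Jak2 serves the receptors for GM-CSF, IL-3, IL-5, TSLP and interferon gamma. It read 10.01 and 10.09 after PMA and ionomycin and 10.58, 10.63 and 10.25 in unstimulated cells. The groups did not overlap, but unstimulated array 3 lay closer to the stimulated arrays than to the other two. The means were 10.05 ± 0.05 (SD, n = 2) and 10.49 ± 0.21 (SD, n = 3), and the difference of -0.44 ± 0.14 SE (95% interval -0.85 to -0.03) did not pass the test (limma adjusted p = 0.225). Leaving out unstimulated array 3 gave -0.56 (adjusted p = 0.0661), and taking it as the lone unstimulated array gave -0.20 (adjusted p = 0.402). Tyk2, the remaining kinase of the family and a partner of Jak1 at interferon and IL-10 receptors, read 6.09 and 6.22 on stimulated arrays and 6.12, 6.29 and 6.22 on unstimulated arrays. Its groups overlapped, with a difference of -0.06 ± 0.08 SE (adjusted p = 0.681).

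Stat4, which acts downstream of the IL-12 receptor, read 8.65 and 8.74 after PMA and ionomycin, against 9.10, 9.21 and 8.89 in unstimulated cells. All stimulated values were below the unstimulated ones, and unstimulated array 3 was again the nearest. The difference of -0.37 ± 0.11 SE (95% interval -0.70 to -0.04, 1.29-fold lower) did not pass the test (limma adjusted p = 0.207). It was -0.46 without unstimulated array 3 and -0.20 against that array alone. Stat2, which joins IRF9 in the interferon-activated complex ISGF3, read 6.16 and 6.29 on the stimulated arrays and 6.68, 6.44 and 6.22 on the unstimulated arrays. Unstimulated array 3 lay between the stimulated values, so the groups overlapped, and the difference was -0.22 ± 0.16 SE (95% interval -0.69 to 0.25, adjusted p = 0.482) and 0.01 against unstimulated array 3 alone.

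Stat3, the main STAT of IL-6, IL-10 and IL-21, had the widest difference in the other direction. It read 8.96 and 9.08 after PMA and ionomycin and 8.90, 8.90 and 8.50 in unstimulated cells. The groups did not overlap, yet stimulated array 1 was only just above unstimulated arrays 1 and 2, whose values were identical to 5 decimals, and unstimulated array 3 was the lowest by far. The difference was 0.25 ± 0.16 SE over all arrays (95% interval -0.20 to 0.71, limma adjusted p = 0.472), 0.12 without unstimulated array 3 and 0.52 against that array alone. Stat6, which carries the signal of IL-4 and IL-13, read 7.76 and 7.86 on stimulated arrays and 7.51, 7.85 and 7.61 on unstimulated arrays. Its groups overlapped, and the difference of 0.15 ± 0.12 SE (95% interval -0.20 to 0.51) did not pass (adjusted p = 0.513).

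Stat5a and Stat5b code for the near-identical pair of STAT5 proteins used by IL-2, IL-7 and GM-CSF, and they lie side by side on chromosome 11, next to Stat3. Stat5a read 6.84 and 6.87 after PMA and ionomycin and 6.87, 6.87 and 6.65 in unstimulated cells, with 1 value shared by 3 arrays to 5 decimals. Stat5b read 6.79 and 6.86 on the stimulated arrays and 6.82, 6.84 and 6.85 on the unstimulated arrays. Neither gene's groups stood apart. The difference was 0.05 ± 0.09 SE for Stat5a (95% interval -0.19 to 0.30, limma adjusted p = 0.724) and -0.02 ± 0.03 SE for Stat5b (95% interval -0.10 to 0.07, adjusted p = 0.760). Stat5b had the narrowest interval of the 8 genes, and the spread of its replicates was larger than that of only 18.2% of all genes.

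**Figure D3:**
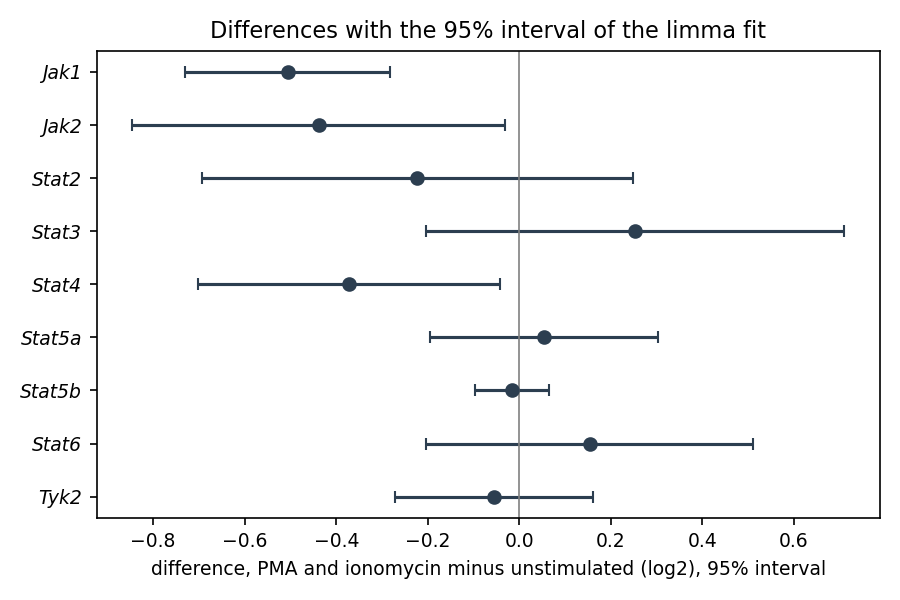
Difference between PMA and ionomycin and unstimulated cells (log2, horizontal) for the 8 measured genes and Tyk2, with the 95% interval of the limma fit as bars. The intervals of Jak1, Jak2 and Stat4 lie below 0, without adjustment for the number of genes tested, and that of Stat5b is the narrowest.

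The differences of Stat3 and Stat6 changed direction after centring on reference genes and under no other alternative. Without that centring they ran from 0.12 to 0.52 for Stat3 and from 0.08 to 0.25 for Stat6. Of the 10 measured reference genes, 9 read higher after PMA and ionomycin and none was called. In 6 of them both stimulated values lay above every unstimulated one (18.6% of all genes). Pgk1 (0.83 ± 0.19 SE, limma adjusted p = 0.138) lay next to the middle of these genes on each array, which sets the centre. Such centring takes the change of that centre as no change. The median difference of the 10 reference genes was 0.21, smaller in size than the shift of all genes given next. In Rplp0 (0.0002), Sdha (0.03) and Ywhaz (0.05) the groups overlapped. Centring each array on reference genes moved the median of all genes to -0.46, and on that scale the differences were -0.97 for Jak1, -0.90 for Jak2, -0.84 for Stat4 and -0.69 for Stat2, all below the shift of all genes, while those of Stat3 (-0.21), Stat6 (-0.31) and Stat5a (-0.41) were above it and that of Stat5b (-0.48) was close to it. A difference between the values of a pair of genes on the same array is free of any such constant. Stat3 minus Stat4 was 0.31 and 0.34 on the stimulated arrays and -0.20, -0.31 and -0.39 on the unstimulated arrays. Stat3 minus Jak1 was -1.05 and -1.13 on the stimulated arrays and -1.73, -1.78 and -2.05 on the unstimulated arrays. In both pairs the stimulated values lay above all unstimulated ones, by 1.54-fold and 1.69-fold on average, whatever constant is added to an array. The pairs were chosen after their values had been seen, and the exact two-sided permutation p of 0.1 for each is the smallest that 2 against 3 arrays allow. Jak1 minus Jak2 (exact permutation p = 0.8) and Stat5a minus Stat5b (p = 0.9) overlapped between the groups.

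By the distance between values centred on each gene's own mean over the 5 arrays, the genes most like Jak1 among 18257 were Atg16l2 (root mean square distance 0.0247), Chrna10 (0.0302) and Rab4a (0.0397). Those most like Jak2 were Plcb4 (0.0313), Hoxb5 (0.0367) and Cyp39a1 (0.0408). Their differences were -0.54 to -0.41, and none of the 6 was called. Distances over 5 arrays describe these arrays only.

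Promoter sequences from RefSeq (GRCm38.p6, 250 bases before to 50 bases after each annotated start) were available for all 9 genes, with 12 promoters in all. They were searched on both strands for the STAT motif TTCNNNGAA, held by 8.30% of all 32851 promoters, for the AP-1 motif TGANTCA (7.81%) and for the interferon response motif GAAANNGAA (8.56%). The motifs do not overlap in these promoters. TTCNNNGAA and TGANTCA were in none of the 12. GAAANNGAA was in 3, those of Stat2 (on the other strand) and Jak3 and 1 of the 2 of Stat4. After the letters had been read, TGACGTCA, the cyclic AMP response motif, was added, which the promoter of Jak1 and 1.79% of all promoters hold. The 250 bases before the start are shown for these 3 promoters, since they hold the matches found in genes with a measured value, with the matches in capitals. They lie at chr10:128270248-128270497 on the plus strand, chr1:52007990-52008239 on the plus strand and chr4:101265224-101265473 on the minus strand. A match in letters does not show that a factor binds there.
Stat2: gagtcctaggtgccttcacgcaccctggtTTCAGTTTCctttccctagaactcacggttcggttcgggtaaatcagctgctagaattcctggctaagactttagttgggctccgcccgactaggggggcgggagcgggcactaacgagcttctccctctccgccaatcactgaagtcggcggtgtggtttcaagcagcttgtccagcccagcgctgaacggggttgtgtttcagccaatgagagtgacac
Stat4: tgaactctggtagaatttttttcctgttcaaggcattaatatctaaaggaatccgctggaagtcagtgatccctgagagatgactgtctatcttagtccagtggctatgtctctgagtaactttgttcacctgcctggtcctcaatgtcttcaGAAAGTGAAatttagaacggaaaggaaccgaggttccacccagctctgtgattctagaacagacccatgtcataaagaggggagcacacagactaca
Jak1: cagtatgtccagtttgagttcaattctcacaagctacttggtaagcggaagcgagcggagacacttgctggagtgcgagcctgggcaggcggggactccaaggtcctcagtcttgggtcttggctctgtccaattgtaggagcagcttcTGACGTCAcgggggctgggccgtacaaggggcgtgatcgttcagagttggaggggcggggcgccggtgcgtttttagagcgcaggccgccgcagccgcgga

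Among the genes around the kinases and STATs, cytokine, receptor, inhibitor and target genes were called, where 0.737% of all genes were called higher and 0.963% lower. Of 19 cytokines that signal through JAKs, 18 were measured, of which Il4 and Il9 rose and Il15 fell (median difference 0.29, and -0.17 after centring on reference genes, which put the median of all genes at -0.46). Il15, whose product signals through the IL-2 receptor beta chain to STAT5, read 4.01 and 3.94 after PMA and ionomycin and 5.93, 6.32 and 6.08 in unstimulated cells, a fall of 4.39-fold (-2.13 ± 0.13 SE, limma adjusted p = 0.0323). The stimulated values lay under the lower quartile of all values (4.49), so the fold may be a lower bound. Il4 read 10.21 and 10.29 on the stimulated arrays and 7.49, 7.57 and 7.08 on the unstimulated arrays, and Il9 read 7.87 and 7.48 on stimulated arrays and 5.51, 5.38 and 5.55 on unstimulated arrays. For each of these 3 genes the groups stood far apart. The cytokine genes Il3 (difference 3.76, limma adjusted p = 0.0652), Il10 (2.93, 0.0508) and Il13 (2.41, 0.0942) were higher without passing the test, and each was called higher under 7 to 10 of the 20 alternatives. Csf2 (-0.79, 0.0566) and Il2 (-1.88, 0.110) were lower without passing. Both were called lower under some alternatives, among them quantile normalization (adjusted p = 0.0205 and 0.0436).

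In 3 receptor lists 5 genes fell and none rose, against 0.963% and 0.737% of all genes. Other receptor genes were called under some alternatives, Il12rb1 higher and Ifngr2, Ifnar2 and Il10rb, among others, lower. Among 7 measured genes of the common gamma chain receptors, which pair Jak1 with Jak3, Il4ra, Il9r and Il7r fell and none rose (median -0.37). Il9r read 5.77 and 5.74 after PMA and ionomycin and 7.54, 7.96 and 7.78 in unstimulated cells, and Il4ra read 7.48 and 7.14 on stimulated arrays and 9.47, 9.33 and 9.10 on unstimulated arrays. Il9 rose while the gene of its receptor, Il9r, fell, as Il4 did with Il4ra. Of 12 measured receptor genes that use Jak2, the interferon gamma receptor gene Ifngr1 fell (8.94 and 8.79 on stimulated arrays, 10.23, 10.30 and 10.21 on unstimulated arrays) and none rose (median -0.27). Ifngr2 was lower without passing (-1.37 ± 0.16 SE, limma adjusted p = 0.0598) and was called lower under some alternatives, among them quantile normalization (0.0157). Of 12 that use Tyk2 or gp130, the IL-10 receptor gene Il10ra fell (7.12 and 7.07 on stimulated arrays, 7.82, 8.00 and 7.97 on unstimulated arrays) and none rose (median -0.54). Ifnar2 (-0.36 ± 0.04 SE, limma adjusted p = 0.0520) and Il10rb (-0.43 ± 0.07 SE, 0.0884) were lower without passing. Both were called lower under some alternatives, among them quantile normalization (adjusted p = 0.0285 and 0.0421). In the same list Il12rb1, an IL-12 receptor chain, read 8.33 and 8.14 after PMA and ionomycin and 6.08, 6.37 and 6.97 in unstimulated cells. Its groups did not overlap, and the difference of 1.76 ± 0.32 SE (3.38-fold higher) did not pass the test (limma adjusted p = 0.0957). It was called higher under 7 of the 20 alternatives, among them quantile normalization (adjusted p = 0.0406) and median centring (0.0476). The median difference over all genes was 0.

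Inhibitors of the pathway were mixed. Of 8 SOCS genes, whose products block the kinases or the docking of STATs, Cish fell and none rose (median -0.06). Over all genes 0.963% fell and 0.737% rose. Cish, a feedback inhibitor induced by STAT5, read 8.06 and 7.99 after PMA and ionomycin and 8.59, 8.58 and 8.49 in unstimulated cells (-0.53 ± 0.05 SE, limma adjusted p = 0.0441). Socs2, another STAT5-induced member, read 8.04 and 7.85 on stimulated arrays and 8.91, 8.78 and 8.27 on unstimulated arrays and did not pass (adjusted p = 0.236). Socs1 differed by 0.17, Socs3 by -0.03, Socs4 by -0.24, Socs5 by -0.02, Socs6 by 0.35 and Socs7 by -0.08, and none of these passed. Among 12 phosphatases, PIAS proteins and other brakes none was called (median 0.00). The widest differences there were in Ptpn6, which codes for the phosphatase SHP-1 (1.20 ± 0.18 SE, adjusted p = 0.0773, called higher under 7 of the 20 alternatives), and Ptpn1 (0.86 ± 0.21 SE, 0.152). Pias1 was lower (-0.43 ± 0.07 SE, 0.0794) and Pias2 higher (0.56 ± 0.09 SE, 0.0862), and each was called in its direction under some alternatives. None of 9 adaptors and coactivators was called either (median -0.03), with the widest differences in the coactivator genes Ncoa1 (-0.82 ± 0.17 SE, adjusted p = 0.118) and Crebbp (-0.65 ± 0.15 SE, 0.130).

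Among genes known as STAT targets, those of STAT3, STAT4, STAT5 and STAT6 held genes that fell and none that rose, while uncalled targets included higher and lower ones. Of all genes tested, 0.963% fell and 0.737% rose. Of 9 STAT3 targets, Fos, Junb and Pim1 fell and none rose (median -0.65), although Fos and Junb are also immediate early genes that respond to many signals. Of 7 STAT4 targets, the IL-18 receptor genes Il18r1 and Il18rap fell and none rose (median -0.31). Of 10 STAT5 targets, Pim1, the survival gene Bcl2 and Cish fell and none rose (median -0.13). Pim1 read 6.48 and 6.68 after PMA and ionomycin and 8.30, 8.53 and 8.20 in unstimulated cells, and Bcl2 read 8.33 and 8.17 on stimulated arrays and 9.34, 9.22 and 9.24 on unstimulated arrays. Of 9 STAT6 targets, Il4ra fell and none rose (median -0.13), and Gata3 differed by -0.51 ± 0.10 SE (adjusted p = 0.107). Batf, a STAT3 target that codes for an AP-1 family factor, read 9.36 and 9.03 on stimulated arrays and 7.47, 7.93 and 7.91 on unstimulated arrays. Its groups stood apart, and the difference of 1.43 ± 0.21 SE did not pass (limma adjusted p = 0.0753) but was called higher under 7 of the 20 alternatives. Cebpb, another STAT3 target, was lower without passing (-0.81 ± 0.08 SE, adjusted p = 0.0510). It was called lower under some alternatives, among them quantile normalization (0.0203) and median centring (0.0253). The cyclin gene Ccnd2, a STAT5 target, differed by 0.77 ± 0.15 SE (adjusted p = 0.104) and was called higher under 3 alternatives. Of the STAT4 targets, Ifng differed by 2.64 ± 0.92 SE (adjusted p = 0.254, called higher under 2) and Tbx21 by 0.82 ± 0.20 SE (0.153, under 1). Some genes stand in more than 1 list, as Pim1, Mcl1, Cish and Il4ra do, so the counts of the lists are not separate results.

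None of 21 measured interferon-stimulated targets of the STAT2 and IRF9 complex was called (median -0.32), and 11 were lower on both stimulated arrays than on every unstimulated array, against 14.0% of all genes. At an unadjusted p under 0.05, 3 were lower, against 8.58% of all genes, and none was higher. Ifit3 read 5.60 and 4.23 after PMA and ionomycin and 9.23, 8.88 and 5.93 in unstimulated cells, and Rtp4 read 5.29 and 5.39 on stimulated arrays and 8.70, 8.01 and 6.20 on unstimulated arrays. In both genes unstimulated array 3 lay far below unstimulated arrays 1 and 2, as it was the lowest of the 3 in Stat2 (6.68, 6.44 and 6.22). Unstimulated array 3 was also the lowest of the 3 in the mean level of the endothelial markers (7.73, 7.37 and 6.26) and of the neutrophil markers (6.45, 5.81 and 5.28), whose part in these values was not tested. The same held for every other marker list but mast cells and basophils, with natural helper cells at 10.40, 10.42 and 10.30. Single markers could differ from their list, as the neutrophil markers Camp and Ltf were not lowest on that array. The limma adjusted p was 0.339 for Ifit3 and 0.290 for Rtp4.

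**Figure D4:**
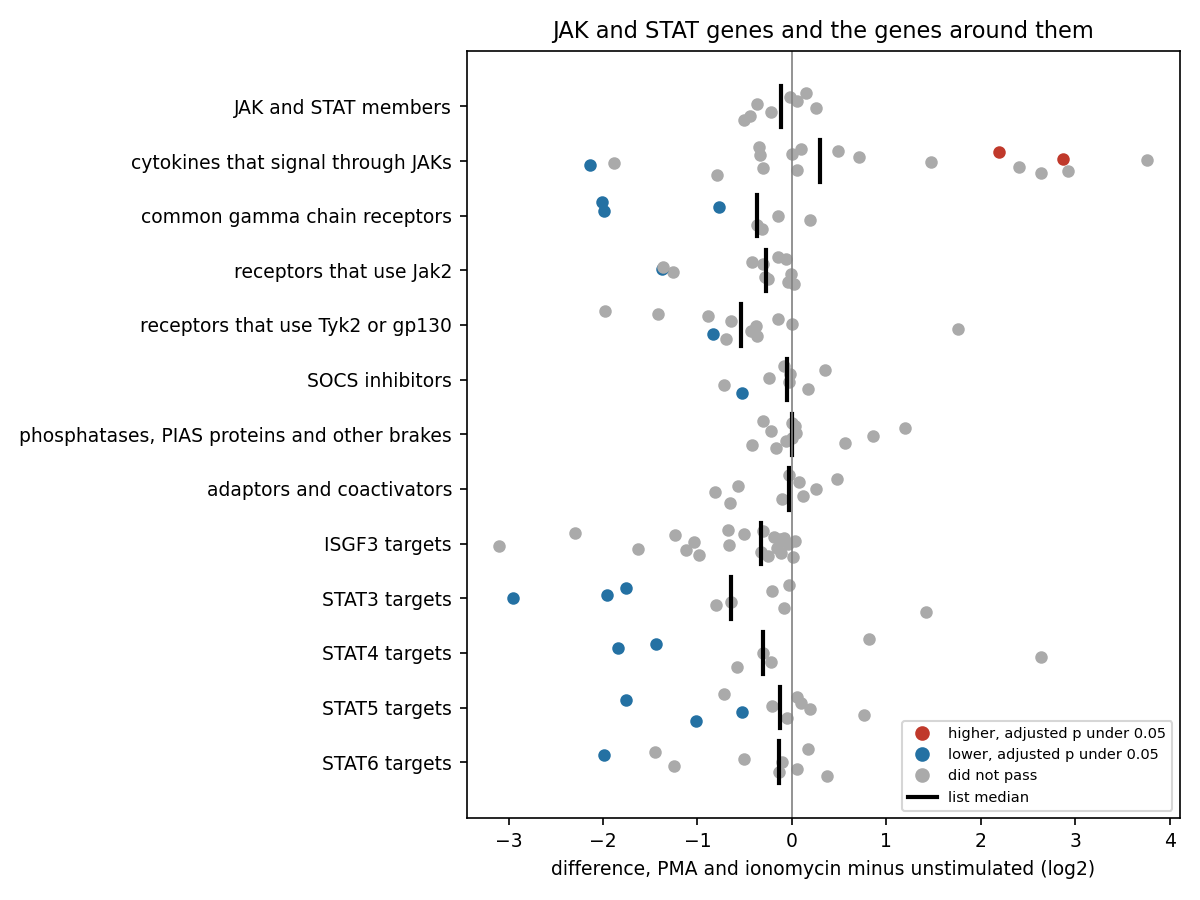
Difference between PMA and ionomycin and unstimulated cells (log2, horizontal) for each measured gene of the JAK and STAT genes and of the lists around them (rows), with called genes in red (higher) or blue (lower) and a black line at each list's median. The 8 JAK and STAT genes lie between -0.51 and 0.25, while called genes of the cytokine, receptor and target lists lie farther from 0.

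The calls in these lists depended on the variance model and on single arrays. With robust variances 5 of the 15 genes called stayed called (Il4, Il15, Il7r, Ifngr1 and Fos), and with the replicate number as a block none did (adjusted p of 0.167 to 0.217). All 15 kept their direction in each fit that left out an array, but none stayed called when unstimulated array 1 or 2 was left out, and only Il4 did when unstimulated array 3 was. Leaving out stimulated array 1 or stimulated array 2 kept 5, which were Il9, Il7r, Ifngr1, Fos and Bcl2 each time, but these fits have a lone stimulated array, which is assumed to vary like the unstimulated ones. Over all 19938 genes the limma calls were 2 higher and 5 lower when unstimulated array 1 was left out, none when it was unstimulated array 2 (3024 at an unadjusted p under 0.05) and 45 and 43 when it was unstimulated array 3. They were 343 and 208 when stimulated array 1 was left out and 361 and 413 when stimulated array 2 was.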

How the data were processed

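RNA of 5 samples was labelled with biotin and hybridised to 1-colour arrays. The authors deposited log2 expression values made with RMA, a summary of each probe set over its probes, per the submitters' processing notes. The version and the arrays normalized together are not given in the sources used here. Of 35556 probe sets, 21789 carry 1 gene symbol in the platform annotation, 1621 several, and 12146 are not in the table used here. By Entrez number 21698 of the single-symbol probe sets matched RefSeq, and no symbol changed. A gene with several took that of the highest mean. In 12359 of 19938 genes (62.0%) at least 2 arrays had the same value to 5 decimals.

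Groups came from the sample titles. The fit was limma 3.58.1 (lmFit and eBayes, R 4.3.3, no filter), with 3 residual and 0.649 prior degrees of freedom and Benjamini-Hochberg adjustment over all genes. Pathway lists are described by counts and medians, without a set test. The genes and lists were chosen with earlier results of these data known. All 9 genes were named whatever their p. So was Tyk2, and SOCS genes could be. An item covered by the naming rule is not reported here. From other lists, up to 6 called genes or the 2 widest differences were named. Gata3, Mcl1, Il3, Il10, Il13, Il12rb1, Batf, Ccnd2, Ifng, Tbx21 and the pairs compared within arrays were named after their values were seen. Alternatives covered variance models, array weights, dim genes, probe sets, normalization, repeated values, the threshold, the replicate number as a block and left-out arrays. The fit was tested on simulated data with independent normal noise. Those data held no shared array effects and no values repeated on only some arrays, so they do not cover these features of the real arrays. Permutation tests used scipy 1.17.1, and plots matplotlib 3.10.9.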

Additional observations from a re-analysis of the deposited data

How the results depend on the processing

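Under all 20 alternatives no JAK or STAT gene was called higher. Jak1 was the 1 called lower among genes brighter than the median, after quantile normalization, with cyclic loess, without genes holding repeated values and at an adjusted p under 0.10. Centring on reference genes called 5 lower (Jak1, Jak2, Stat2, Stat4 and Stat5b), with all genes shifted by -0.46. In that fit the newly called genes of the surrounding lists all had the same SE (0.2074), so its adjusted p-values do not reflect the spread of each gene. Uncalled differences changed sign in 3 alternatives for Stat5a, 2 for Stat5b and 1 each for Stat2, Stat3 and Stat6. Stat3 and Stat5a could not be fitted without repeated values.

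Over all genes, calls were 45 higher and 66 lower with robust variances, 824 and 716 among genes above the median, 317 and 351 above the lower quartile, 825 and 729 with quantile normalization, 660 and 526 with median centring, 562 and 10338 with centring on reference genes, 619 and 666 with cyclic loess, 1548 and 1161 without repeated values, and 755 and 695 at an adjusted p under 0.10. They ranged from 0 to 361 higher and 0 to 413 lower when 1 array was left out, and were 0 and 0 against unstimulated array 3 alone (3739 genes at an unadjusted p under 0.05 in limma), where that array is assumed to vary like the stimulated ones. Calls with an intensity trend, array weights or another choice of probe set stayed within 1.5 times the reported counts. With the replicate number as a block limma called 0 higher and 0 lower (3568 at an unadjusted p under 0.05) with 1 degree of freedom left, and 0 JAK or STAT genes. Same-numbered samples share only a number: deviations correlated by -0.145 for number 1 and -0.0582 for number 2. Of 228 list medians under alternatives, 32 moved by more than 1 SD and 6 changed sign. Of 504 counts of genes called in a list, 166 moved by over 1.5 times or to or away from 0. Without detection calls, dim values could not be set apart from background.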

Other observations

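Arrays within a group differed in the same direction over the JAK and STAT genes. All 8 measured genes read lower on stimulated array 1 than on stimulated array 2, as did 40.3% of all genes. Of the 8, 6 had their lowest unstimulated value on unstimulated array 3, as did 23.1% of all genes, the exceptions being Stat5b and Stat6. Both patterns were noticed in the values and were not tested.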
